A study of Mus musculus with 26 samples.

Results

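The 10 genes described here encode secreted cytokines that epidermal cells can make: *Tnf*, *Il23a*, *Lif*, *Il6*, *Il19*, *Il20*, *Il24*, *Csf1*, *Csf2* and *Csf3*. They were taken by symbol from the 56738 gene symbols of the count table, and all 10 symbols were found. Of these genes, 7 averaged more than 10 normalized counts per library, as did 16893 symbols in all, and the 7 were tested together with the whole table. *Il6*, *Il19* and *Il20* stayed under this limit and are described by their counts. No measured value was used to choose the 10 genes from the table, although they were proposed with earlier results of these data known.

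RNA was sequenced from primary keratinocytes of 2-day-old neonatal C57BL/6NJ mice, 5 wild-type (WT) and 8 *Pla2g4d*-deficient (KO). *Pla2g4d* encodes a cytosolic phospholipase A2 and transacylase, and the KO line carries a CRISPR-Cas9 deletion in this gene in all cells of the animal. The 13 mice gave 26 libraries, 13 without added cytokines (basal) and 13 after 24 h with IL17A and TNFα at 20 ng/ml each, and basal and stimulated libraries that bear the same number were taken to be from the same mouse. All groups were grown in the same low-calcium medium.

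TNF signals through the receptors TNFR1 and TNFR2 and switches on the transcription factor NF-κB, which in turn drives many cytokine genes, *Tnf* among them. *Il23a* encodes the p19 subunit, which forms IL-23 with the p40 subunit encoded by *Il12b*. LIF and IL-6 signal through the shared chain gp130 (*Il6st*), the IL-20 family (*Il19*, *Il20*, *Il24*) through IL-20 and IL-22 receptor chains, and the colony-stimulating factors act mainly on macrophages and granulocytes.

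The libraries held between 42072745 and 78102858 counts, with a median of 53126822, so that 3 counts correspond to between 0.0386 and 0.0709 CPM, the unit of counts scaled to a common library size used here. Of the nonzero counts of at most 20, 83.2% were even. The keratinocyte markers *Krt5*, *Krt14*, *Krt15*, *Trp63*, *Itga6*, *Itgb4*, *Krt1* and *Krt10* were all expressed, and summed to between 37505 and 44185 CPM in basal libraries and between 29984 and 32342 CPM with cytokines. *Pla2g4d* itself was measured per gene, including exons outside the deletion, so that its count does not check the deletion: its basal level was between 1.21 and 4.63 CPM in WT libraries and between 1.15 and 2.98 CPM in KO libraries. Libraries of a group differed by more than sampling noise in all cases. The paper describes a change to homozygous breeding after the backcross, under which WT and KO pups are not littermates. A genotype difference therefore cannot be told apart from one between litters or breeding lines. How many litters were used was not given.

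The genes lie on 6 chromosomes of the GRCm39 build. *Tnf* spans chr17:35418357-35420983 on the minus strand, with 4 exons. *Il23a* spans chr10:128132008-128134621 on the minus strand. *Lif* spans chr11:4207557-4222514 on the plus strand. *Csf2* (chr11:54138097-54140493, minus strand) and *Csf3* (chr11:98592089-98594458, plus strand) are on the same chromosome. *Csf1* spans chr3:107648364-107667806 on the minus strand, and *Il6* spans chr5:30218112-30224979 on the plus strand. *Il24* (chr1:130809811-130815191), *Il20* (chr1:130834722-130839188) and *Il19* (chr1:130860393-130867852) are neighbours on the minus strand. *Il6*, *Csf1*, *Csf2* and *Csf3* each overlap a long noncoding RNA on the opposite strand (*Gm42450*, *Gm40121*, *Gm57329* and *Gm38985*). The library kit keeps the strand, but the strand setting of the counting is not given in the sources used here, so reads of these pairs may not have been told apart.

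The 250 bases before the start of the canonical transcript of each gene were searched on both strands for 3 motifs, and the matches are printed as a description. The motifs were NF-kB, AP-1 (TGAGTCA) and STAT (TTCNNNGAA). The NF-kB letters were GGGRN followed by WYYCC, where R is A or G, W is A or T, Y is C or T and N is any base. An NF-kB match was present in 3 of 10 windows (*Il23a*, *Il6* and *Csf1*), against 4.23% of 21770 windows of the same length. An AP-1 match was present in 3 of 10 (*Il23a*, *Lif* and *Il6*), against 4.02%, and a STAT match in 2 of 10 (*Il24* and *Csf2*), against 7.7%. The windows of *Tnf*, *Il19*, *Il20* and *Csf3* held none of these matches. Sites outside the 250 bases, or with other letters, were not sought. Each stretch below has 30 bases, 5′ to 3′ on the strand of the gene, with the match in capitals.
Il23a, NF-kB: gatgtagggaGGGGAATCCCacctgctctg
Il23a, AP-1: cccacctgctcTGAGTCAcctgctagtgtg
Il6, NF-kB: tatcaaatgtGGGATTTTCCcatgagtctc
Il6, AP-1: cTGAGTCActtttaaagaaaaaaaagaaga
Csf1, NF-kB: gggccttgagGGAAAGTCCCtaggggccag
Lif, AP-1: ccagtcagctgTGACTCAggccatagtggc
Il24, STAT: ggaactgcagTTCAGAGAAgccaggtttca
Csf2, STAT: gggctgccagTTCTTGGAAgggcttattaa

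The *Il23a* stretches lie at chr10:128134039-128134068 and chr10:128134022-128134051, where their matches begin 94 and 76 bases before the start. Both are inside an exon of another *Il23a* transcript that is annotated as a retained intron. The NF-kB stretch of *Il6* (chr5:30218058-30218087) has its match 44 bases before the start and that of *Csf1* (chr3:107667920-107667949) 133 bases before it. The other stretches lie at chr5:30217862-30217891 for *Il6*, chr11:4207329-4207358 for *Lif*, chr1:130815326-130815355 for *Il24* and chr11:54140645-54140674 for *Csf2*. A match is a description of the letters, and binding was not measured.

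Per kilobase of exon, *Tnf* had the highest mean level of the 10 genes in each of the 4 groups. In WT basal cells it reached 3.13 ± 0.677 RPKM (CPM divided by the exon length in kilobases; SD, n = 5), followed by *Csf1* at 2.89 ± 1.16 and *Lif* at 1.85 ± 0.172 RPKM. The ranges of *Tnf* and *Csf1*, and those of *Csf1* and *Lif*, overlapped there. *Csf3* (0.584 ± 0.293 RPKM) and *Il23a* (0.438 ± 0.223 RPKM) came next and overlapped each other, and all 5 *Lif* values lay above both. *Il24* followed at 0.216 ± 0.156 and *Csf2* at 0.0835 ± 0.0920 RPKM. In KO basal cells the order began with *Tnf* (7.63 ± 1.67 RPKM, n = 8), whose range no longer met that of *Csf1* (3.66 ± 0.835), and *Il23a* (1.16 ± 0.389) and *Csf3* (1.07 ± 0.430) again overlapped. With cytokines, *Tnf* reached 22.2 ± 1.91 RPKM in WT and 21.7 ± 5.14 RPKM in KO cells and stood apart from the genes below it. *Csf1* was next, at 7.55 ± 1.47 RPKM in WT and 7.11 ± 0.770 in KO cells. *Csf2* rose from the lowest of the 7 tested genes in basal cells of each genotype to 4.03 ± 1.28 RPKM in WT and 4.63 ± 0.914 RPKM in KO cells, where it overlapped *Csf3*. *Il24* stayed under 0.4 RPKM on average in all groups.

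**Figure D1:**
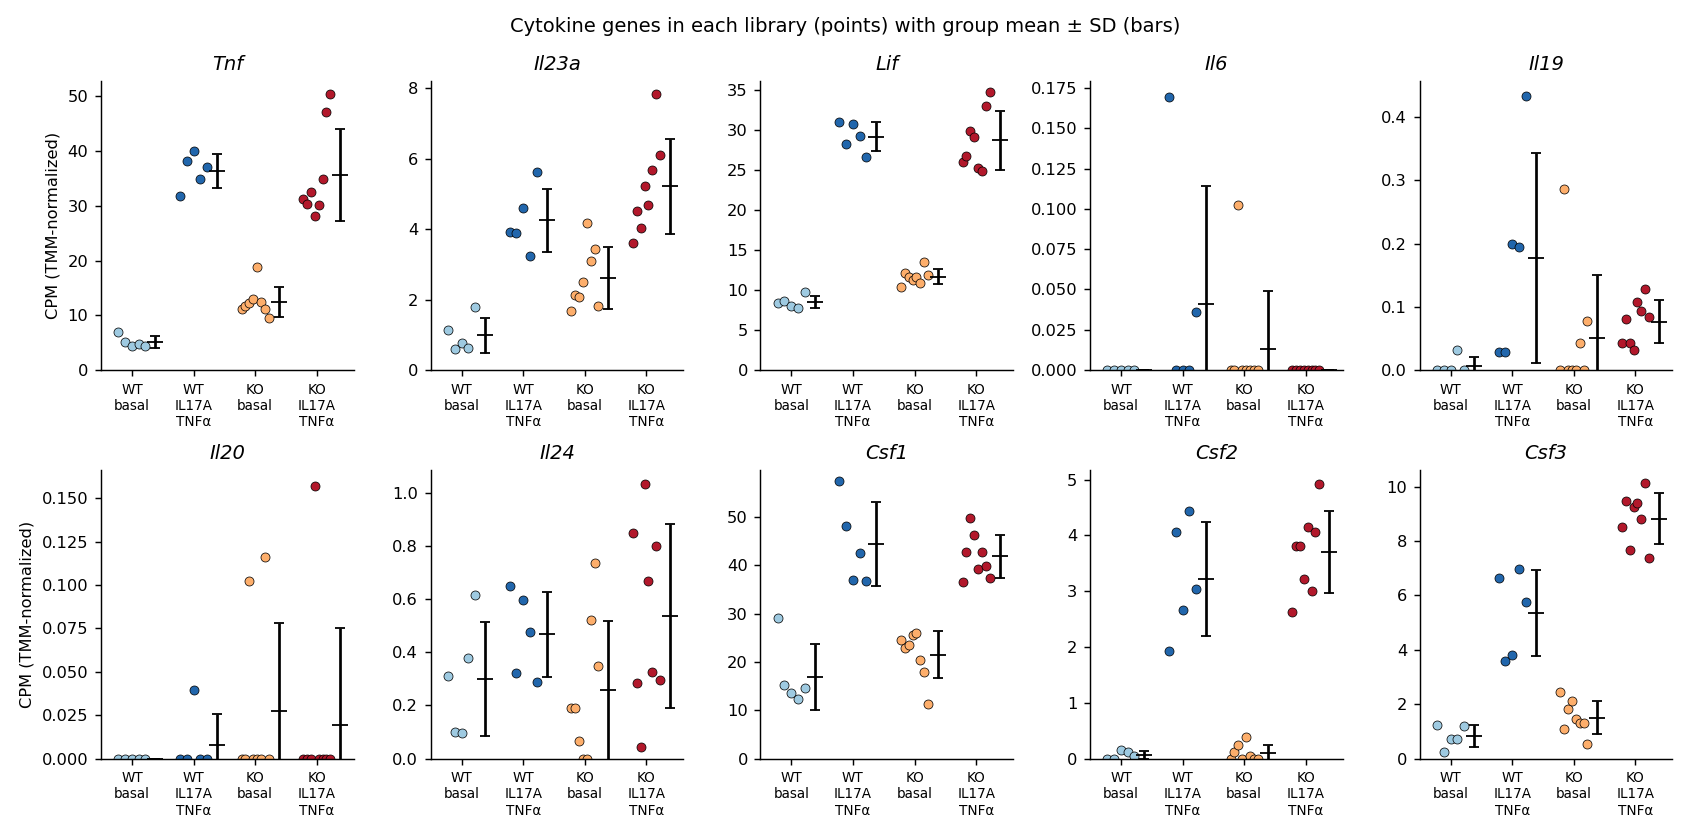
Level of each of the 10 cytokine genes in TMM-normalized CPM (each panel has its own linear axis from 0), where points are libraries of WT and KO cells, basal and with IL17A and TNFα, and bars give the group mean and SD, with the lower end not drawn below 0. *Tnf*, *Il23a* and *Lif* start higher in KO basal cells and reach levels with cytokines that overlap those of WT cells.

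Basal WT and KO cells were compared to ask whether these cytokines differ between the genotypes without a stimulus. Of the 7 tested genes, *Tnf*, *Il23a* and *Csf3* were higher in KO cells, and none was lower. A gene was called when its adjusted p was below 0.1 and it changed by more than 1.5-fold, and 2.68% of the 16893 genes were called in this comparison (1.61% as higher in KO). The median log2 fold change of the 7 genes was 0.46, which is the value of *Lif*, against 0.0004 over all genes tested. The paper already names *Tnf*, *Il23a* and *Lif* as upregulated in basal KO cells of these data. The count and the median of these genes are therefore a description and not independent support. Unless another test is named, p-values come from the quasi-likelihood test of edgeR and are adjusted over all 16893 genes by the method of Benjamini and Hochberg. In bulk RNA, a change in the share of cells that express a gene and a change in the RNA per cell cannot be told apart. Where groups of libraries are said not to overlap, the share of all genes with such a separation was not counted.

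*Tnf* encodes tumour necrosis factor, the cytokine that was also added as protein in the stimulated cultures. Its basal level was 7.03, 5.13, 4.44, 4.72 and 4.30 CPM in WT replicates 1 to 5. In the 8 KO mice the lowest level was 9.52, the median 12 and the highest 18.8 CPM. The groups did not overlap, the 8 KO libraries being higher throughout, and KO replicate 5 stood above the other KO mice, which reached at most 13 CPM. KO cells thus had a log2 fold change of 1.29 over WT cells (standard error, SE, 0.16, adjusted p = 2.38e-06), which lay between 1.18 and 1.42 when each mouse was left out in turn.

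*Il23a*, the IL-23 p19 subunit, had basal levels of 1.13, 0.592, 0.772, 0.629 and 1.80 CPM in WT cells. KO cells ranged from 1.68 to 4.17 CPM with a median of 2.32 CPM. Of the 8 KO libraries, 7 were above all WT libraries, the exception being KO replicate 1, which lay below WT replicate 5. This gave a log2 fold change of 1.42 (SE 0.26, adjusted p = 0.000572).
*Il12b*, which encodes the p40 partner of p19, had 0 counts in all 13 basal libraries.

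*Lif*, leukemia inhibitory factor, a ligand of the gp130 family, was 8.33, 8.61, 7.97, 7.80 and 9.80 CPM in WT basal cells. It ranged from 10.4 to 13.5 CPM in KO cells, with a median of 11.6 CPM. The groups did not overlap, with 8 of 8 KO libraries above all WT libraries. Its difference of 0.46 in log2 (SE 0.08, adjusted p = 0.00049) passed the limit on p but not the one on fold change.

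The colony-stimulating factors differed less clearly between the genotypes in basal cells. *Csf3* (G-CSF, the growth factor of neutrophils) was 1.25, 0.237, 0.708, 0.739 and 1.20 CPM in WT cells and ranged from 0.542 to 2.47 CPM in KO cells, with a median of 1.39 CPM. The groups overlapped, with 6 of 8 KO libraries above all WT libraries. KO exceeded WT cells by 0.88 in log2 (SE 0.29, adjusted p = 0.0569). This call was lost without WT replicate 2 (adjusted p = 0.156), WT replicate 3 (0.122), WT replicate 4 (0.131) or KO replicate 1 (0.139), and when only the 2 basal groups were fitted (0.222).
*Csf1* (M-CSF, the growth factor of macrophages) was 29.0, 15.2, 13.5, 12.3 and 14.7 CPM in WT cells and between 11.4 and 25.9 CPM in KO cells, with a median of 23.2 CPM. WT replicate 1 exceeded every KO library, whereas the other 4 WT libraries exceeded only KO replicate 8. The fitted difference was 0.34 in log2 (SE 0.18, adjusted p = 0.252), and it was 0.62 without WT replicate 1 (adjusted p = 0.00395).
*Csf2* (GM-CSF) was near the limit of detection in basal cells, with 20 counts over 5 WT libraries and 44 counts over 8 KO libraries, and 2 WT and 4 KO libraries at 0. Its log2 fold change of 0.44 had an adjusted p of 0.802. *Il24*, an IL-20 family cytokine, had 79 counts in WT and 108 counts in KO basal cells and an adjusted p over 0.1 as well.

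Cells of each genotype were then compared with and without IL17A and TNFα to describe the response of these genes to the stimulus. In WT cells 6 of the 7 tested genes rose and none fell, and in KO cells the count was again 6 of 7. The genes were *Tnf*, *Il23a*, *Lif*, *Csf1*, *Csf2* and *Csf3* in each genotype, and *Il24* passed the test in neither. *Csf2* passed the filter, a mean over all 26 libraries, only through its stimulated libraries. Its basal groups held 20 counts over 5 WT and 44 counts over 8 KO libraries. Its place among the genes that rose was thus partly set by the filter, which left out *Il6*, *Il19* and *Il20*. Over all genes, 13.9% were called in WT (8.65% as higher) and 10.9% in KO cells (6.33% as higher). The median log2 fold change of the 7 genes was 2.13 in WT and 1.30 in KO cells, against 0.014 and 0.0046 over all genes.

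*Tnf* rose to 31.9, 38.2, 40.0, 34.9 and 37.0 CPM in the WT libraries with cytokines. In KO libraries with cytokines it ranged from 28.2 to 50.5 CPM, with a median of 31.9 CPM. No stimulated library overlapped a basal library of the same genotype. WT cells rose by 2.83 in log2 (SE 0.17, adjusted p = 1.93e-13). The rise of KO cells was 1.51 in log2 (SE 0.13, adjusted p = 1.64e-10).

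*Il23a* reached 3.92, 3.89, 4.59, 3.25 and 5.61 CPM in stimulated WT cells, all above the basal WT libraries. In stimulated KO cells it ranged from 3.61 to 7.84 CPM, with a median of 4.96 CPM, and 6 of 8 libraries lay above all basal KO libraries. Its log2 fold change was 2.13 with an adjusted p of 7.26e-07 in WT cells, and 0.999 with an adjusted p of 0.00047 in KO cells. *Il12b* had 70 counts over 5 of 5 stimulated WT libraries and 64 counts over 7 of 8 stimulated KO libraries. *Il12a*, which pairs with p40 in IL-12, was at 0 in all 26 libraries.

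*Lif* reached 31.0, 28.3, 30.7, 29.2 and 26.6 CPM in stimulated WT cells and between 24.9 and 34.8 CPM, with a median of 27.9 CPM, in stimulated KO cells. Every stimulated library exceeded every basal library of its genotype. The rise was 1.78 in log2 for WT (SE 0.09, adjusted p = 5.77e-15) and 1.30 for KO cells (SE 0.07, adjusted p = 1.28e-14).

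Among the colony-stimulating factors, *Csf2* had the largest fitted rise of the 7 genes. It reached 1.93, 4.06, 2.67, 4.44 and 3.03 CPM in WT cells and between 2.63 and 4.93 CPM, with a median of 3.81 CPM, in KO cells. In log2 the fitted rise was 5.47 for WT (SE 0.74, adjusted p = 7.92e-07) and 5.23 for KO cells (SE 0.56, adjusted p = 1.34e-08). These folds rest on basal groups with few counts, and their size is therefore uncertain, although no stimulated library overlapped a basal one.
*Csf3* rose to 6.65, 3.58, 3.8, 6.98 and 5.76 CPM in WT cells and to between 7.37 and 10.1 CPM, with a median of 9.02 CPM, in KO cells, log2 fold changes of 2.69 and 2.53. *Csf1* rose to 57.4, 48.1, 37.0, 42.5 and 36.8 CPM in WT cells and to between 36.5 and 49.7 CPM in KO cells, with a median of 41.3 CPM. Its log2 fold change was 1.39 in WT (adjusted p = 1.6e-06) and 0.96 in KO cells (adjusted p = 1.08e-05).

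The IL-20 family and *Il6* stayed low with cytokines. *Il24* ranged from 0.289 to 0.649 CPM in stimulated WT cells and from 0.0433 to 1.03 CPM in stimulated KO cells, overlapping the basal libraries in each genotype. Its log2 fold change in KO cells was 1.09 with an adjusted p of 0.222, and limma on the authors' log2 values gave 1.55 with an adjusted p of 0.0944. *Il19* had 103 counts in 17 of 26 libraries. Its mean was 0.00629 CPM in basal and 0.177 CPM in stimulated WT cells (exact permutation test of the means, two-sided p = 0.0238, unadjusted, 1 of 12 such tests on the genes under the filter). That test took basal and stimulated libraries as independent and ignored their pairing by mouse, so no conclusion is drawn from its p. *Il19* had counts in 5 of 5 stimulated and 1 of 5 basal WT libraries. With no filter on low counts, edgeR called *Il19* as higher in stimulated WT cells as well, which made 7 of the 10 genes, on a basal group with 2 counts of it. In KO cells the means of *Il19* were 0.0510 and 0.0765 CPM (exact permutation p = 0.588). *Il20* had 24 counts in 4 libraries, and *Il6*, a gp130 family cytokine, had 20 counts in 3 libraries. *Il6* was at 0 in all 8 stimulated KO libraries and all 5 basal WT libraries, where 0 counts allow a level of up to between 0.0386 and 0.0709 CPM per library. Differences of *Il6* and *Il20* between groups were not detectable at this depth.

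**Figure D2:**
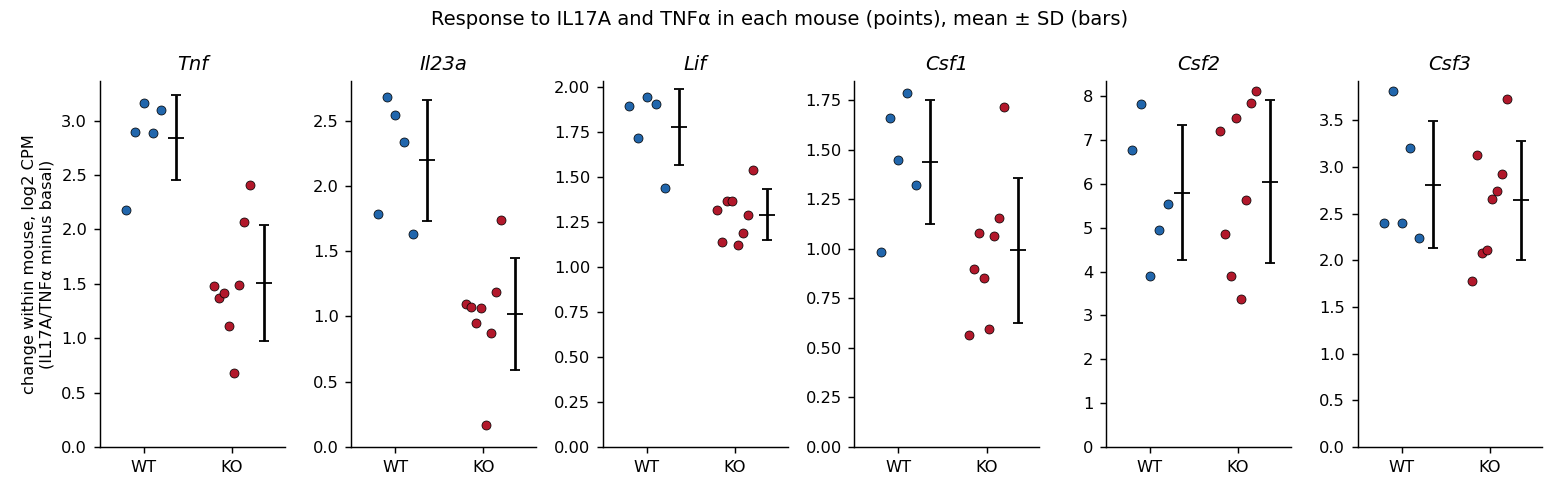
Change of *Tnf*, *Il23a*, *Lif*, *Csf1*, *Csf2* and *Csf3* within each mouse, as log2 CPM with IL17A and TNFα minus log2 CPM basal, where points are the 5 WT and 8 KO mice and bars give the mean and SD (each panel has its own axis from 0). For *Tnf*, *Il23a* and *Lif*, 7 of 8 KO mice lie below all WT mice.

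The response was smaller in KO than in WT cells for *Tnf*, by the interaction of genotype and stimulus. For each gene the interaction is the genotype difference with cytokines minus the basal one, which for *Tnf* were -0.03 and 1.29 in log2. It is therefore not independent of the basal difference given above. The interaction was -1.32 in log2 (SE 0.21, adjusted p = 0.00251) and was the only one called as lower among the 7 genes. Over all genes, 0.184% were called as lower in KO. Within each mouse, *Tnf* rose by 2.84 ± 0.392 in log2 CPM in WT (SD, n = 5) and by 1.5 ± 0.533 in KO mice (SD, n = 8), a difference of -1.34 (exact permutation test, two-sided p = 0.00155, where the smallest p the design allows is 0.000777). The smallest change in WT was 2.18, in replicate 1, and the changes of the KO mice ran from 0.68 in replicate 5 to 2.41 in replicate 8. KO replicate 5 also had the highest basal level of the KO mice, 18.8 CPM. The change is the stimulated minus the basal value, so a high basal level lowers it by construction.

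*Il23a* and *Lif* gave the same direction with less certainty in the fit across all genes. For *Il23a* the interaction was -1.13 in log2 (SE 0.35, adjusted p = 0.197), and with the mouse as a block it was -1.18 and passed (adjusted p = 0.0231), as it did with DESeq2 (adjusted p = 0.0704). Its change within mice was 2.20 in WT and 1.02 in KO, a difference of -1.18 (exact permutation p = 0.00155), with 7 of 8 KO mice below all WT mice. For *Lif* the interaction was -0.48 (SE 0.12, adjusted p = 0.0515), under the limit on fold change. Leaving out each mouse moved that adjusted p between 0.0257 and 0.187. The change of *Lif* within mice was 1.78 ± 0.211 in WT and 1.29 ± 0.140 in KO, a difference of -0.49 (exact permutation p = 0.00155, n = 5 and 8). These exact tests are unadjusted and 7 of them were run.

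Interactions of the colony-stimulating factors were smaller relative to their errors. *Csf1* had an interaction of -0.43 (adjusted p = 0.627) and a difference in change within mice of -0.45 (exact permutation p = 0.0474), whose p rose to as much as 0.115 when a mouse was left out. For *Csf3* the interaction was -0.16 and the difference within mice -0.17 (exact permutation p = 0.653). For *Csf2* the difference within mice was 0.25 (exact permutation p = 0.797) and for *Il24* 0.71 (p = 0.588, exact permutation).

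With cytokines, the levels of KO and WT cells were compared directly. By edgeR none of the 7 genes was called, where 0.704% of all genes were called, and DESeq2 called 1, *Csf3*. By edgeR 1 of the 7 had an unadjusted p under 0.05, as did 2533 of all 16893 genes. KO minus WT in log2 was -0.03 for *Tnf* (SE 0.14, adjusted p = 0.961), 0.30 for *Il23a* (SE 0.24, adjusted p = 0.62) and -0.02 for *Lif*. For *Csf3* the stimulated groups did not overlap, with 8 of 8 KO libraries higher, a separation whose share over all genes was not counted. This difference was 0.72 in log2 (SE 0.27, adjusted p = 0.176), and the adjusted p was 0.0764 with DESeq2, 0.0226 when only these 2 groups were fitted, 0.0887 with a sex score as covariate, 0.0685 without WT replicate 1 and 0.0766 without KO replicate 8. *Csf3* thus had higher mean levels in KO cells in both conditions, whereas the genotype difference of *Tnf* was smaller with cytokines by its interaction.

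**Figure D3:**
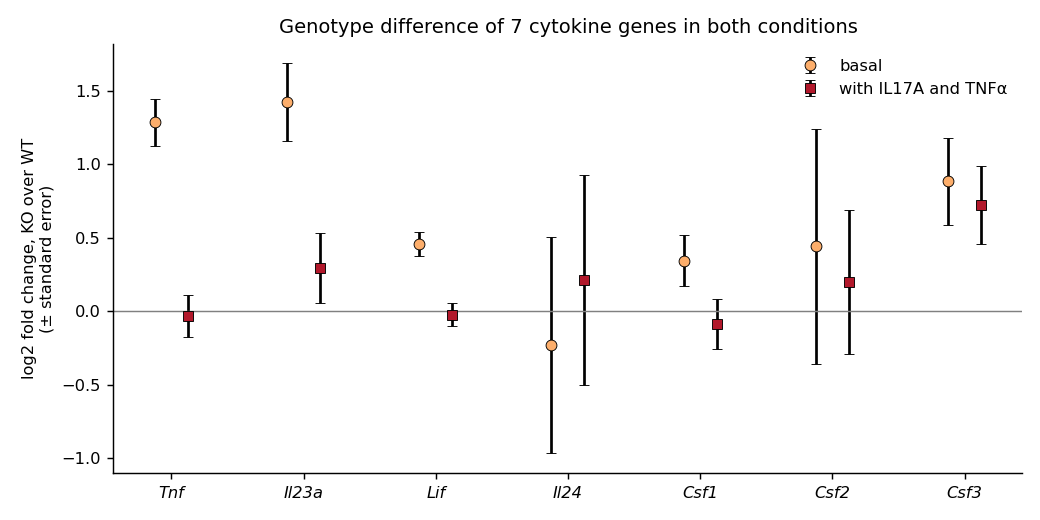
Log2 fold change of KO over WT cells for the 7 tested cytokine genes, basal (circles) and with IL17A and TNFα (squares), with the standard error of the fit as bars. The basal values of *Tnf* (1.29) and *Il23a* (1.42) are the highest, and *Csf3* lies above 0 in both conditions.

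The partners and related ligands were examined as a list of 18 genes, of which 7 were over the filter. In each genotype 2 of them rose with cytokines and none fell, where 8.65% of all genes were called as higher in WT and 6.33% in KO cells. *Il34*, which encodes a second ligand of the M-CSF receptor, rose by a log2 of 1.75 in WT (adjusted p = 2.17e-07) and 2.15 in KO cells (adjusted p = 4.51e-11). *Clcf1*, a gp130 family cytokine, rose by 0.96 in WT and 0.87 in KO cells. None of the list was called between the genotypes, where 2.68% of all genes were called in basal cells and 0.704% with cytokines. *Osm*, a close relative of *Lif*, had 4 counts in 2 basal KO libraries, and *Il3* and *Il22* were at 0 in all libraries.

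Of 16 receptor genes, 13 were tested. In WT cells 3 rose and 4 fell with cytokines, and in KO cells 2 rose and 3 fell. Over all genes, 8.65% were called as higher and 5.26% as lower in WT cells. In KO cells these shares were 6.33% and 4.55%. *Tnfrsf1b*, which encodes TNFR2, rose by a log2 of 2.98 in WT (adjusted p = 7.31e-05) and 3.38 in KO cells (adjusted p = 2.51e-07). *Tnfrsf1a*, which encodes TNFR1, had a log2 fold change of -0.10 in WT (adjusted p = 0.267) and -0.03 in KO cells (adjusted p = 0.76). *Il22ra1*, a chain of the IL-20 and IL-22 receptors, rose by 0.71 and 0.83.

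The receptors that fell include those of the gp130 and IL-20 families. *Lifr*, the specific chain of the LIF receptor, fell by 1.07 on the log2 scale in WT (adjusted p = 0.00158) and by 0.69 in KO cells (adjusted p = 0.00916). *Il6ra* fell by 0.92 and by 0.62. *Il20rb*, a chain of the receptors for IL-19, IL-20 and IL-24, fell by 1.65 in WT and by 1.39 in KO cells. *Il6st* fell by 0.77 in WT cells (adjusted p = 2.46e-10), and its change of -0.43 in KO cells (adjusted p = 1.39e-07) was under the limit on fold change. *Csf2rb*, a shared chain of the GM-CSF receptor, was called as higher with cytokines in WT and as higher in KO basal cells. The WT basal libraries held only 2 of its counts, so no fold is given. It had 75 counts over 8 KO basal libraries, 54 over 5 stimulated WT and 192 over 8 stimulated KO libraries. Its place among the genes that rose in WT cells was thus partly set by the filter, as for *Csf2*. *Csf3r*, the receptor of G-CSF, was at 0 in all 26 libraries. *Osmr*, the oncostatin M receptor, changed by 0.51 in WT (adjusted p = 0.000515) and 0.43 in KO cells (adjusted p = 0.000245), under the limit on fold change. *Csf1r*, the M-CSF receptor, had log2 fold changes of -0.07 and -0.22 with adjusted p of 0.904 and 0.567.

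Among 13 genes of the JAK-STAT pathway and its SOCS inhibitors, 12 were tested and 2 rose with cytokines in each genotype. The share of all genes called as higher was 8.65% in WT and 6.33% in KO cells. *Socs1* rose by a log2 of 2.66 in WT and 1.54 in KO cells, with an interaction of -1.12 that did not pass (adjusted p = 0.273), and *Socs2* rose by 0.96 and 0.68. *Socs3* had a change of -0.15 in WT (adjusted p = 0.41) and -0.39 in KO cells (adjusted p = 0.00267), under the limit on fold change.

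The list of genes that process cytokine mRNA or protein had 13 members, all tested. With cytokines 4 of them rose in each genotype and none fell, against 8.65% of all genes called as higher in WT and 6.33% in KO cells. *Zc3h12a*, which encodes the RNase Regnase-1 that degrades cytokine mRNA, rose by a log2 of 2.59 in WT and 2.21 in KO cells. *Tnfaip3*, which encodes the NF-κB inhibitor A20, rose by 1.83 in WT and 1.19 in KO cells. *Zc3h12c* rose by 1.22 and 1.09, and *Rhbdf1*, a cofactor of the TNF-releasing protease ADAM17, by 0.95 and 0.84. *Zfp36*, which encodes the mRNA decay factor tristetraprolin, had a log2 fold change of 0.33 in WT (adjusted p = 0.0588) and -0.15 in KO cells (adjusted p = 0.308). In basal cells 1 of the 13 was called between the genotypes, against 2.68% of all genes. It was *Arid5a*, an RNA-binding protein that stabilises cytokine mRNA. Its log2 fold change of 0.59 (adjusted p = 0.000192) lay at the limit on fold change. *Tnfaip3* lay just under that limit, at 0.58 (adjusted p = 2.31e-06), and *Zc3h12a* was at 0.29 (adjusted p = 0.000132). For all 3 of these genes, 8 of 8 KO basal libraries were above all WT basal libraries. The share of all genes that separate in this way was not counted. The basal values of *Tnfaip3* and *Zc3h12a* were chosen after they were seen. *Tnfaip3* had a smaller rise in KO cells, with an interaction of -0.64 (adjusted p = 0.00201), and that of *Zc3h12a* was -0.38 (adjusted p = 0.00408), under the limit on fold change.

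**Figure D4:**
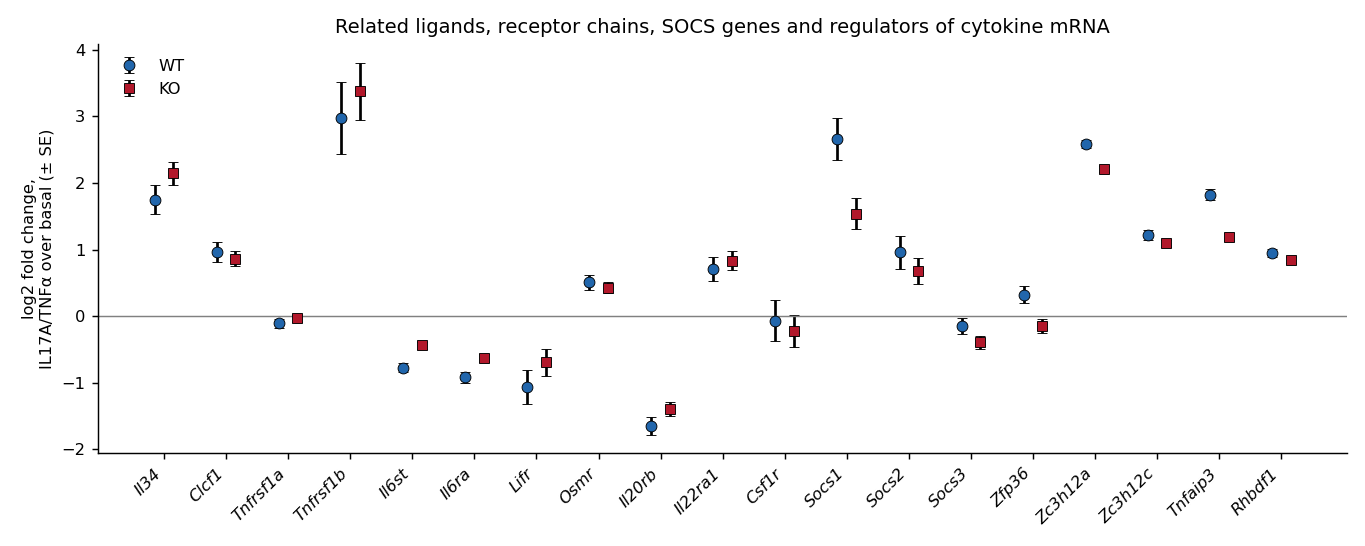
Log2 fold change with IL17A and TNFα over basal cells (vertical axis) in WT (circles) and KO cells (squares) for named genes of the related lists, with the SE of the fit as bars. *Tnfrsf1b* has the highest value in KO cells (3.38), and *Il20rb* the lowest in both genotypes (-1.65 and -1.39).

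Markers of other cells of the skin were measured beside these genes. Summed immune markers (13 genes, of which 8 were under the filter) ranged from 21.8 to 34.0 CPM in WT basal, 20.7 to 40.9 in KO basal, 31.8 to 52.9 in stimulated WT and 27.8 to 56.4 CPM in stimulated KO cells. Most of that sum came from *Cd68* and *Lyz2*. *Ptprc*, which marks leukocytes, was at most 0.116 CPM in any library. *Cd207* and *Cpa3*, which mark Langerhans cells and mast cells, were at 0 in all 26. Other immune markers of the list were detected. *Csf1r* averaged between 2.06 and 2.52 CPM in the 4 groups. *Tyrobp*, *Fcer1g*, *Adgre1* and *Cd74* reached up to 0.606, 0.570, 0.592 and 0.552 CPM in a library. *Cd68* rose with cytokines by a log2 of 0.75 in WT cells (adjusted p = 0.000538). Between the genotypes in basal cells none of the 5 tested immune markers was called, against 2.68% of all genes. *Lyz2* had a log2 fold change of 0.999 (adjusted p = 0.182). Fibroblast markers summed to between 2.12 and 8.62 CPM over all libraries, and *Col1a2* was lower with cytokines in WT (log2 fold change -1.67) and KO cells (-1.01).
Endothelial markers summed to between 1.37 and 3.03 CPM in WT basal, 1.79 and 4.79 in KO basal, 3.50 and 5.36 in stimulated WT and 4.85 and 5.95 CPM in stimulated KO cells. Of these 5 markers 2 were tested, *Emcn* was at 0 in all 26 libraries and *Cdh5* was at 0 in all 13 basal libraries. *Pecam1*, a marker of endothelial cells and of some leukocytes, was higher in KO basal cells, the comparison in which *Tnf*, *Il23a* and *Csf3* were higher, at 1.59 ± 0.528 CPM (SD, n = 8) against 0.816 ± 0.403 CPM in WT basal cells (SD, n = 5). This was 0.95 in log2 by edgeR (adjusted p = 0.0195), with 5 of 8 KO values above every WT value. The other tested marker, *Kdr*, had a basal log2 fold change of 0.30 by edgeR (adjusted p = 0.601). *Tek*, under the filter, went the other way, with means of 0.179 CPM in WT and 0.122 CPM in KO basal cells. With cytokines, *Pecam1* rose by 1.68 in log2 in WT and by 0.59 in KO cells, and *Kdr* by 0.87 and 0.99.
Melanocyte markers had a median sum of 570 CPM in WT basal and 552 CPM in KO basal cells, and of 463 CPM in stimulated WT and 330 CPM in stimulated KO cells. With cytokines *Tyr* and *Mitf* fell in each genotype, and *Dct* and *Pmel* were called as lower in KO cells. In stimulated cells all 6 melanocyte markers had fitted values below 0 for KO over WT and none was called. Of these, 4 had an adjusted p under 0.1 (*Dct* -0.47, *Pmel* -0.57, *Tyr* -0.43 and *Mlana* -0.38 in log2), as did 479 of all 16893 genes.
The keratinocyte markers *Krt1*, *Krt10* and *Krt15* fell with cytokines in each genotype. The differentiation keratin *Krt1* was lower in KO cells in basal libraries, by a log2 fold change of -0.75 (adjusted p = 0.00776), and with cytokines, by -1.42 (adjusted p = 0.000146), where *Krt10* was lower as well, by -1.15. The part of these markers in the cytokine levels was not tested.

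The genes whose levels went most closely with each cytokine over the 26 libraries were sought among the 11855 genes with a mean normalized count over 100. As deviations of log2 CPM from the group means, the closest gene to *Tnf* was *Inhba*, which encodes a subunit of activin (Pearson's r = 0.718, and 0.985 over the libraries without removing group means), followed by *App* (r = 0.680) and *Erfe* (r = 0.679). The closest to *Il23a* was *Galnt3* (r = 0.826), followed by *Ascc2* (r = 0.774) and *Ppp3cb* (r = 0.760). The closest gene was *Btg2* for *Lif* (r = 0.724), *Arfgap3* for *Csf3* (r = 0.795), *Ttll10* for *Csf2* (r = 0.678), 2610005L07Rik for *Il24* (r = 0.685), and for *Csf1* the unnamed gene ENSMUSG00000120992 (r = 0.929) with *Col8a1* next (r = 0.926). Among the 7 cytokine genes themselves, the 21 pairs had r between -0.362 and 0.547 with a median of 0.114. The 2 libraries of a mouse share that mouse, and all libraries share the scaling for depth.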

How the data were processed

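Bulk RNA-seq of primary keratinocytes was analysed in 26 libraries from 5 WT and 8 KO mice, basal and with cytokines. The authors aligned reads to mm39 with STAR 2.7.10b and counted them with featureCounts 2.0.6 and GENCODE (names and versions per the submitters' processing notes). The deposited counts are raw counts per gene symbol. The authors also deposited log2 normalized counts, used only for limma. Groups were taken from the labels.

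Genes with a mean normalized count over 10 were fitted by the quasi-likelihood method of edgeR 4.0.16 (R 4.3.3), with TMM scaling, 4 groups and no covariate. CPM are scaled by TMM, log2 CPM used a prior count of 1, and RPKM used exon lengths of GENCODE on GRCm39, a later annotation release than that of the counts. Standard errors were derived from the fold change and the F statistic. The edgeR fit was also run on simulated counts. These were drawn independently for each library, without an effect of the mouse, so they cannot speak to the pairing. Exact permutation tests were run over mice for the change within each mouse. For the genes under the filter they were run over libraries, without the pairing of libraries by mouse. Motif windows were read from the GRCm39 genome.

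All 10 cytokine genes are named, as are called genes of the other lists and of the cell type markers (at most 6 per list and contrast) and *Il12a*, *Il12b*, *Il34*, *Osm*, *Socs3*, *Zfp36*, *Zc3h12a* and 10 receptor genes whatever their values. Genes most like a member are ranked by r. *Il3*, *Il22*, the basal values of *Tnfaip3* and *Zc3h12a*, and cell type markers that were not called were chosen after their values were seen. The members and lists were chosen with earlier results of these data known. The labels number the libraries 1 to 5 (WT) and 1 to 8 (KO) in each condition, for 5 and 8 mice. Libraries with the same number were therefore taken to be from 1 mouse, which no source used here states outright. A score of *Xist* against Y-linked genes had the same sign in both libraries for 13 of 13 numbers. In the 13 mice, the correlation of both libraries' deviations from their group means, taken over genes, ran from 0.0005 to 0.254 (median 0.106). For single cytokine genes, the basal and stimulated deviations over the 13 mice were more strongly related in some cases. Pearson's r was -0.599 for *Tnf*, 0.572 for *Il23a*, 0.249 for *Lif* and -0.142 for *Il24*. It was 0.615 for *Csf1*, 0.221 for *Csf2* and 0.567 for *Csf3*. The main fit did not use this pairing. The block is possible for the cytokine contrasts and the interaction, since a genotype difference lies between mice. No 2 libraries of a group agreed within sampling noise (lowest chi-square per degree of freedom 7.22).

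Alternatives were the scaling of DESeq2 in edgeR, DESeq2 1.42.0, limma 3.58.1 on the authors' log2 values, no filter on low counts, a sex score as covariate, a fit of only 2 groups, a block for each mouse, no limit on fold change, an adjusted p of 0.05, other prior counts, and each mouse left out. Total counts per library were between 42072745 and 78102858, at which counting error is minor above 1 CPM. Intervals and limits for 0 counts cover counting error only, and even counts dominate at low levels, so a fragment may have been counted as 2 reads. Protein sequences and binding data were not used here.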

Additional observations from a re-analysis of the deposited data

Results flagged for a closer look

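The basal *Tnf* level of KO replicate 5, 18.8 CPM, lay further from the other KO mice than Dixon's 95% limit for 8 values allows. The same test singled out the basal *Csf1* level of WT replicate 1, 29.0 CPM. Of 28 groups of values tested this way 2 were singled out, and chance gives about 1 in 20. The response to cytokines differed between WT and KO cells for *Tnf*, with an interaction of -1.32 in log2, and by the limit on p alone for *Lif*, with an interaction of -0.48.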

How the results depend on the processing

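Counts of called genes in the basal comparison and in the cytokine response of each genotype stayed within 1.5 times under all alternatives. With cytokines, 1 gene was called between the genotypes by DESeq2, with only the 2 groups compared and with the sex score, and 0 to 1 with a mouse left out (1 without WT replicate 1 or KO replicate 8). For the interaction, 2 genes were called by DESeq2, with the mouse as a replicate block (pairing) and with no limit on fold change. The block changed the call of *Il23a* and no other.

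Signs turned only where no call was made. With limma on the authors' log2 values, *Csf2* had a basal difference of -0.013 and an interaction of 0.25, and *Il24* a genotype difference with cytokines of -0.13. With the block, the *Csf2* interaction was 0.035. With a mouse left out, the genotype difference with cytokines ran from -0.11 to 0.016 for *Tnf*, -0.060 to 0.0086 for *Lif* and -0.15 to 0.031 for *Csf1*. The basal difference ran from -0.34 to 1.04 for *Csf2* and -0.68 to 0.18 for *Il24*, and the interaction from -0.90 to 0.51 for *Csf2* and -0.10 to 0.79 for *Il24*. The difference of changes within mice ran from -0.56 to -0.36 for *Csf1* (not under 0.05 in 11 of 13 cases), -0.23 to 0.75 for *Csf2* and -0.32 to 0.084 for *Csf3*. The causes were not tested. Depth limits *Il6*, *Il19*, *Il20* and basal *Csf2*.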
